A study of Mus musculus with 50 samples.

Results

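Genes of the extraembryonic endoderm and the yolk sac were followed in differentiated mouse embryonic stem (ES) cells that carry a deletion of Repeat B (RepB) of the X-linked noncoding RNA Xist. The members were taken by symbol from a list of 31 genes, and 30 of them have a row among the 24391 genes of the RNA count tables. Spink3 has no row under that symbol and was skipped. All 30 passed the filter on low counts and were among the 15149 genes tested in ES cells. Poly(A) RNA was sequenced from wild-type, RepB+/- and RepB-/- ES cells, with 2 libraries per genotype (called the first and the second after their replicate numbers), and from wild-type and RepB mouse embryonic fibroblasts (MEF), with 1 library each. All 8 samples have a CAST/Ei x 129/Sv/Jae strain background, so reads over strain variants can be given to the 129 or the CAST chromosome. The ES cells were expanded on irradiated MEF feeders, freed of them, kept 4 days as floating embryoid bodies and then 10 days on gelatin before harvest, and no further agent is named for any group. MEF were grown in fibroblast medium. Of the 50 samples in the series, the other 42 were not analysed here.

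The labels do not say which chromosome lost the repeat in RepB+/- cells, whether the RepB MEF lost it on 1 or both chromosomes, or whether a genotype is 1 clone. Nor do they say that the replicates were separate cultures, so the p-values measure only the spread between these libraries, which may be technical. A read count over the whole Xist gene does not show whether the repeat is missing: the wild-type ES libraries had Xist at 910 and 902 CPM (counts scaled to a common library size, TMM-adjusted), the RepB+/- libraries at 917 and 809, and the RepB-/- libraries at 828 and 1149. The ES libraries held 8000722 to 28045645 counted reads, with RepB+/- replicate 2 the shallowest, and the MEF libraries 12126941 (wild type) and 18631736 (RepB). In a principal component analysis of the ES libraries the first component (50.8% of the variance) separated wild type (-33.2 and -45.7) from the 4 RepB libraries (13.8 to 24.3), and the second (23.6%) put RepB+/- replicate 2 apart at -39.2, with the others at -7.18 to 18.3.

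The visceral endoderm is the absorbing and secreting epithelium that surrounds the early embryo and lines the visceral yolk sac. It takes up maternal proteins with a receptor made of cubilin and amnionless together with the receptor megalin, and it makes serum proteins and lipoproteins before the liver does, under transcription factors of the GATA, SOX, FOXA and HNF families. In embryoid bodies such an epithelium forms as the outer layer, over a basement membrane rich in laminin. The definitive endoderm of the gut and liver uses many of the same genes.

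All members had reads in every ES genotype. In wild type, Alb and Fga reached the level asked by the filter on low counts in 1 library each, and Apoc2 in none. Levels of different genes were compared as RPKM, that is CPM divided by exon length in kilobases (mean ± SD, n = 2). In wild-type ES cells Apoe, encoding a lipoprotein component made by many cell types, was the highest member at 489 ± 64.5 RPKM, followed by the laminin gene Lamb1 (103 ± 10.4) and Gata6 (86.0 ± 6.53), a transcription factor gene of the primitive endoderm. The secreted-protein genes Apoa1, Rbp4, Ttr and Afp stood at 71.9 ± 16.2, 61.0 ± 4.64, 50.8 ± 4.71 and 47.5 ± 2.44 RPKM, and among neighbours in this order Apoa1 and Rbp4, and Ttr and Afp, did not separate beyond their spread, while the Rbp4 libraries (57.7 and 64.3 RPKM) lay above those of Ttr (47.4 and 54.1). At the low end were Alb (0.230 ± 0.0319), Fga (0.152 ± 0.106) and Apoc2 (0.116 ± 0.0160). Of the 30 members, 29 had a mean of at least 1 CPM over the 6 ES libraries, and Apoc2 did not.

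**Figure D1:**
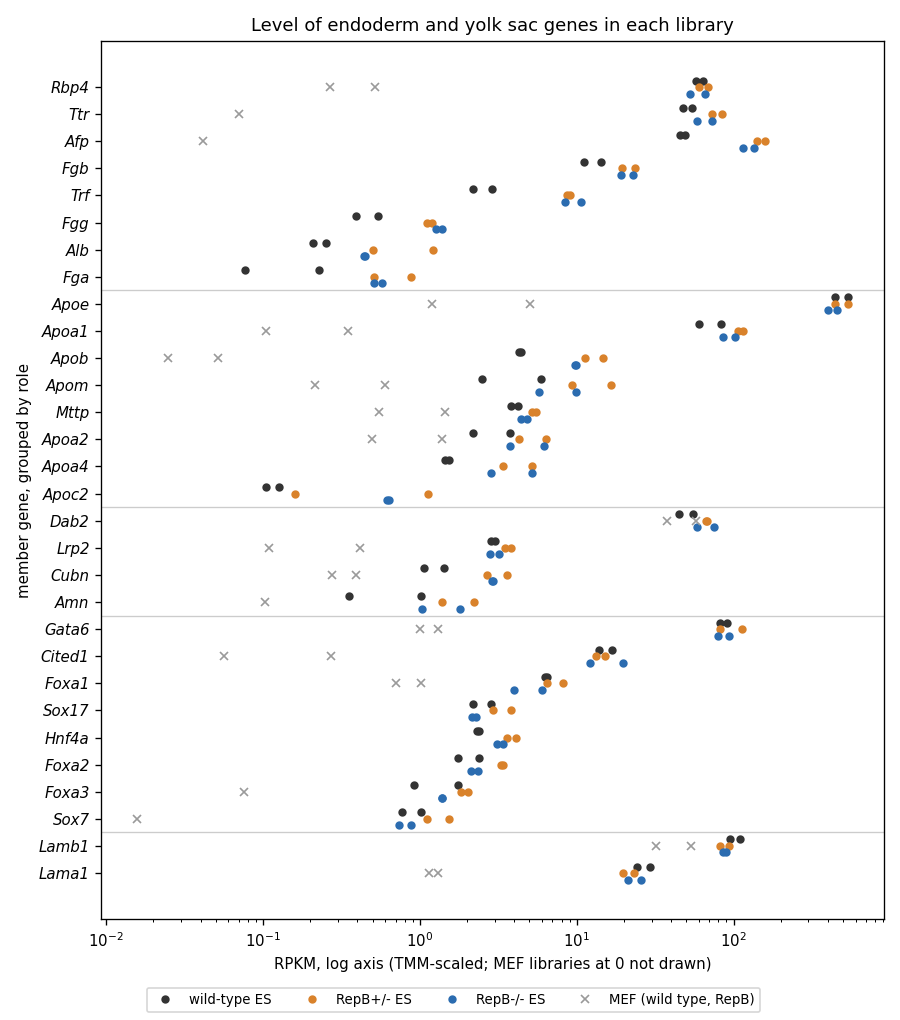
Level of each of the 30 members in RPKM (log axis), 1 point per library, grouped by role. ES libraries are filled circles, MEF libraries are crosses, and MEF libraries at 0 are not drawn. The crosses lie left of the circles for most members, and Dab2, Lamb1 and Apoa2 have a cross within or close to the range of the ES points.

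MEF served as the reference of cells that are not endoderm, and they set many but not all members apart from a fibroblast background. In MEF, 10 members had 0 reads in both libraries and 20 were under 1 CPM in both. Of the 24391 genes of the count tables, 11680 averaged at least 1 CPM there, 9 members among them. Against a floor of 3 counts in the wild-type MEF library (0.259 CPM), wild-type ES cells had at least 77.3-fold more Fgb, at least 39.6-fold more Sox17, at least 39.4-fold more Hnf4a and at least 22.9-fold more Trf. Gata6 was 86.0-fold and Apoe 97.7-fold higher in wild-type ES cells than in wild-type MEF. TMM factors were computed apart for ES and MEF libraries, and wild-type MEF had 1 library, so small ratios between them are approximate. Dab2 (1.33-fold), Lamb1 (1.92-fold) and Apoa2 (2.14-fold, 2.77 against 1.29 CPM) were close to their MEF level, so these 3 do not mark endoderm here. Alb, Fga and Fgg had no MEF reads but were so low in wild-type ES cells that the bounds were only 1.82-, 1.97- and 2.74-fold. Apoc2 (0.0940 CPM) lay under the floor. In such bulk samples fewer cells of a type and less RNA per cell cannot be told apart.

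The first question was whether the endoderm genes differ between cells with and without the repeat. The members were chosen with earlier results of these data known. Their shares beside those of all genes are therefore descriptions, not independent support for a rise. In RepB+/- cells 18 of the 30 members (60.0%) rose and none fell by edgeR's quasi-likelihood test at a threshold of 0.05 on the adjusted p (Benjamini-Hochberg, all 15149 genes), where 9.12% of all genes tested rose and 6.84% fell. The median log2 fold change was 0.68 for the members and 0.02 for all genes tested. At an unadjusted p of 0.05, 22 members were higher and 1 was lower, beside 17.4% and 13.7% of all genes tested. In 24 members both RepB+/- libraries exceeded the wild-type pair, beside 30.5% of all genes tested, and in 2 both were lower, beside 28% of all genes tested. Of the same 30, 8 (26.7%) rose and none fell in RepB-/- cells, where 7.27% of all genes rose and 5.49% fell, with a median of 0.41 against 0.01 for all genes. At an unadjusted p of 0.05, 16 members were higher and none lower, beside 15.1% and 12.5% of all genes. In 17 members both RepB-/- libraries exceeded the wild-type pair (31.5% of all genes), and in 2 both were lower (27.9% of all genes).

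All 8 members called in RepB-/- cells (Afp, Trf, Fga, Fgb, Fgg, Apoa4, Apob and Cubn) were also among the 18 called in RepB+/- cells, which is 44.4% of the 18. Both comparisons use the same wild-type libraries. The size of the count rested on single libraries. The RepB+/- count was 7 after omission of the first wild-type library, 10 after that of the second, and 9 with the first RepB+/- library omitted. The RepB-/- count was 5 when the first wild-type or the first RepB-/- library was omitted. It was 13 and 14 when the first or the second RepB+/- library was omitted, although neither belongs to the groups compared. In RepB+/- cells DESeq2 did not call Fgg, Apom, Mttp, Amn or Foxa2 (DESeq2 adjusted p from 0.0639 to 0.123). With no filter on low counts Ttr, Apoa1, Apoa2, Apom, Amn, Dab2 and Hnf4a were also called in RepB-/- cells (edgeR adjusted p from 0.00372 to 0.0376). Of the members called, Alb and Fga each reached the filter's level in 1 wild-type library and Apoc2 in none, so these passed through RepB libraries. The calls of Alb, Fga and Apoc2 are therefore no support for a rise, though they stay in the counts above and in those by group below. Afp, Trf, Apob and Cubn kept their call in both comparisons, and Apoa4 in RepB+/- cells, under all 13 alternative settings, each omission of a library included.

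**Figure D2:**
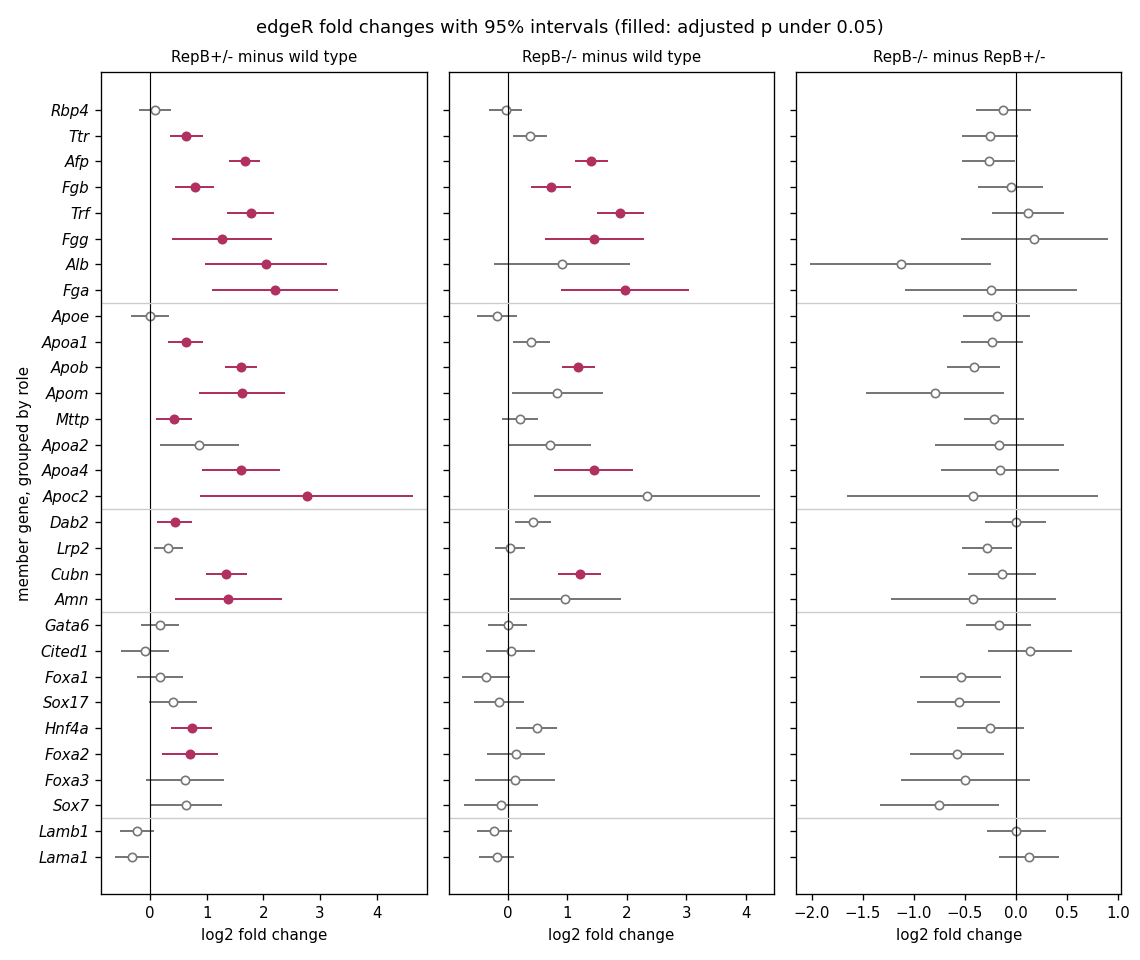
Log2 fold change of each member with its 95% interval from edgeR, for RepB+/- minus wild type, RepB-/- minus wild type and RepB-/- minus RepB+/-; filled points have an adjusted p under 0.05. The filled points all lie right of 0, 18 in the first comparison and 8 in the second, and the third has none.

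Promoters are shown for the members with the lowest adjusted p values that have an entry in the RefSeq promoter table (mouse build GRCm38.p6), since these rose together. Afp and Apob encode secreted proteins, Cubn an uptake receptor and Fgb a clotting protein. Each line gives the 250 bases before the annotated start, 5′ to 3′ on the strand of the gene. Capitals mark the letters searched on both strands: TGTTTAC or TGTTTGC for FOXA, CAAAGTC or AAGGTCA for HNF4A, AGATAA or TGATAA for GATA, and ACAATG or ACAAAG for SOX, with a match on the other strand seen as its complement read backwards.
Afp promoter, chr5:90490464-90490713, plus strand: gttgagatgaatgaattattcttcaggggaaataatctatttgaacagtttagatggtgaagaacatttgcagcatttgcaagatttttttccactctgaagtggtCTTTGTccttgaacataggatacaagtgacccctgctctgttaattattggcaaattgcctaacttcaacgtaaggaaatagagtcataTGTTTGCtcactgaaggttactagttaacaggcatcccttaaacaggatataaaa
Apob promoter, chr12:7977427-7977676, plus strand: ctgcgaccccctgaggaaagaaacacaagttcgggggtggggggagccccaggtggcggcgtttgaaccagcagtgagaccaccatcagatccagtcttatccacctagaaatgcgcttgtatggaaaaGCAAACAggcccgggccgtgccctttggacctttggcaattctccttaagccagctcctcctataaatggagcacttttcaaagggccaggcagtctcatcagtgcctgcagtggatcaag
Cubn promoter, chr2:13491877-13492126, minus strand: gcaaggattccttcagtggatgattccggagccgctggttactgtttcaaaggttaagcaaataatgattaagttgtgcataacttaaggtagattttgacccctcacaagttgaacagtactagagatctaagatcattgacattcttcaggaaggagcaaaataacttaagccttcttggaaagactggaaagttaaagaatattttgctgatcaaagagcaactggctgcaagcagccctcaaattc
Fgb promoter, chr3:83049864-83050113, minus strand: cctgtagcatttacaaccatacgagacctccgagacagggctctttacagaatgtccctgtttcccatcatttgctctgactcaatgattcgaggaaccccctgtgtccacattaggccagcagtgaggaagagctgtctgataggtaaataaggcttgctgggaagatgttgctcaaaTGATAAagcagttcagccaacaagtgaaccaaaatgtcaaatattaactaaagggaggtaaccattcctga
The Afp promoter held a FOXA match 55 to 49 bases before the start and, on the other strand, a SOX match at 144 to 139. In Apob a FOXA match on the other strand lay at 121 to 115. Fgb had a GATA match at 71 to 66, and the Cubn window had none of these letters.

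Promoter entries were found for 24 of the 30 members (not for Ttr, Trf, Sox7, Sox17, Gata6 and Lama1), with 34 promoters of 300 bases in all. FOXA letters stood in 8 of the 34 (23.5%), against 8.48% of the 32851 promoters of the table. The shares were 8.82% against 8.89% for HNF4A, 17.6% against 18.6% for GATA and 17.6% against 28.6% for SOX. The FOXA letters were found at Afp, Alb, Apoa1, Apoa2, Apob, Apoe, Foxa1 and Rbp4, and of these Apoe, Foxa1 and Rbp4 were called in neither comparison. A match is a description of the letters, not a binding site or a cause, and some members share a promoter region or have several entries.

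Secreted serum proteins, with Alb and Fga included, had the highest median change of the 5 groups of members. Of the 8 serum protein genes, 7 rose in RepB+/- and 5 in RepB-/- cells, with median log2 fold changes of 1.47 and 1.15. These medians rest in part on Alb and Fga, which passed the filter through RepB libraries. For this group and those below, the shares of all genes tested that rose were 9.12% in RepB+/- and 7.27% in RepB-/- cells. Their summed level was 261 and 274 CPM in the wild-type libraries, 588 and 521 in RepB+/- and 523 and 433 in RepB-/-, with no overlap between wild type and either RepB genotype. Afp, alpha-fetoprotein, the main serum protein of the yolk sac and fetal liver (mm9 chromosome 5, listed exon 90919740 to 90919891, plus strand), made up the largest share of the rise. Afp stood at 103 and 95.5 CPM in wild-type libraries, 333 and 296 in RepB+/- and 283 and 239 in RepB-/- libraries. Every RepB library exceeded the wild-type pair. The fold was 3.18 in RepB+/- (log2 1.67, SE 0.12, edgeR adjusted p = 3.83e-06) and 2.63 in RepB-/- cells (log2 1.40, SE 0.12, edgeR adjusted p = 8.51e-06).

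Trf, the iron carrier transferrin (chromosome 9, listed exon 103111206 to 103111408, minus strand), was at 6.76 and 5.09 CPM in wild-type libraries, 20.2 and 21.2 in RepB+/- and 24.9 and 19.7 in RepB-/- libraries. The RepB libraries of both genotypes were all at least as high as 19.7 CPM and far from the wild-type ones. Its fold was 3.42 in RepB+/- (log2 1.77, SE 0.18, edgeR adjusted p = 2.76e-05) and 3.70 in RepB-/- cells (log2 1.89, SE 0.18, edgeR adjusted p = 1.34e-05). Ttr, the thyroid hormone and retinol carrier transthyretin, was at 57.9 and 66.0 CPM in wild-type libraries, 102 and 89.2 in RepB+/- and 89.5 and 71.0 in RepB-/- libraries. It rose in RepB+/- cells (log2 0.64, SE 0.13, edgeR adjusted p = 0.0039). The RepB-/- libraries also lay above wild type, and their change (log2 0.38, SE 0.13) did not pass at an edgeR adjusted p of 0.061. Rbp4, which carries retinol in serum bound to transthyretin, was the 1 serum protein gene called in neither comparison. Its libraries overlapped, at 74.8 and 83.3 CPM in wild-type libraries, 89.5 and 77.5 in RepB+/- and 85.3 and 68.5 in RepB-/- cells (log2 0.09 and -0.04, SE 0.12 each).

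The 3 fibrinogen chains, which form the clot protein of plasma, lie in 1 cluster on chromosome 3 with 18.3 kb between the listed exons of Fgg and Fga and 16.2 kb between those of Fga and Fgb, and all 3 rose in both genotypes. Fgb, the most abundant (12.7 ± 2.30 RPKM in wild type), was at 17.4 and 22.6 CPM in wild-type libraries, 36.8 and 30.8 in RepB+/- and 35.8 and 30.0 in RepB-/- libraries. That is log2 0.79 (SE 0.15, edgeR adjusted p = 0.00332) and 0.73 (SE 0.15, edgeR adjusted p = 0.00481). Its exon is listed at 82846227 to 82846556 on the minus strand. Fga was at 0.258 and 0.763 CPM in wild-type libraries, 1.72 and 2.97 in RepB+/- and 1.73 and 1.92 in RepB-/- libraries, from 5 to 50 reads per library. Its log2 fold changes were 2.21 (SE 0.52, edgeR adjusted p = 0.00969) and 1.97 (SE 0.50, edgeR adjusted p = 0.0172). Fga passed the filter on low counts through RepB libraries, so its calls are no support for a rise. Fgg was at 0.826 and 0.593 CPM in wild-type libraries, 1.83 and 1.68 in RepB+/- and 1.93 and 2.10 in RepB-/- libraries (log2 1.28 and 1.45, edgeR adjusted p = 0.044 and 0.0208). For each chain every RepB library exceeded both wild-type libraries.

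Alb, the albumin gene, lies 29.8 kb from Afp by listed exons and was far lower. It was at 0.516 and 0.424 CPM in wild-type libraries, 2.49 and 1.03 in RepB+/- and 0.897 and 0.914 in RepB-/- libraries, from 5 to 71 reads. The rise in RepB+/- cells (log2 2.04, SE 0.50, edgeR adjusted p = 0.0125) leaned on RepB+/- replicate 1, and in RepB-/- cells the change was 0.91 (SE 0.53, edgeR adjusted p = 0.287). Alb, like Fga, passed the filter on low counts through RepB libraries, so its call is no support for a rise. Several of these calls depended on 1 library. In RepB+/- cells Ttr (edgeR adjusted p = 0.0645), Fga (0.139) and Fgb (0.061) lost theirs when the first wild-type library was omitted, Alb when either wild-type or the first RepB+/- library was (up to 0.369), and Fgg on omission of any library but the second RepB+/- one (up to 0.23). The RepB-/- call of Fga was lost on omission of the first wild-type or either RepB-/- library (up to 0.23), that of Fgb with the first wild-type or first RepB-/- library omitted (up to 0.0885), and that of Fgg with any 1 wild-type or RepB-/- library omitted (up to 0.165). Ttr gained a call in RepB-/- cells when either RepB+/- or the second RepB-/- library was omitted (edgeR adjusted p from 0.0278 to 0.0334).

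Apolipoproteins and the lipid export gene Mttp formed the next group, in which 6 of 8 genes rose in RepB+/- and 2 of 8 in RepB-/- cells. The median log2 values were 1.24 and 0.77, with Apoc2 included, which passed the filter only through RepB libraries. Apob, the backbone protein of very low density lipoprotein (chromosome 12, listed exon 7984483 to 7984666, plus strand), was at 61.1 and 59.3 CPM in wild-type libraries, 205 and 158 in RepB+/- and 136 and 138 in RepB-/- libraries. The RepB+/- libraries were the highest, the RepB-/- ones in between, and no genotype overlapped another. Apob rose 3.03-fold (log2 1.60, SE 0.12, edgeR adjusted p = 3.83e-06) and 2.27-fold (log2 1.18, SE 0.12, edgeR adjusted p = 2.81e-05). Mttp, which loads lipid onto that backbone, was at 16.9 and 18.6 CPM in wild-type libraries, 24.3 and 22.9 in RepB+/- and 21.2 and 19.6 in RepB-/- libraries. It rose in RepB+/- cells by a small margin (log2 0.42, SE 0.14, edgeR adjusted p = 0.0488), a call that each omission of a library ended (up to 0.264), and in RepB-/- cells the change was 0.21 (SE 0.14, edgeR adjusted p = 0.351).

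Apoa1, the main protein of high density lipoprotein, and Apoa4, made by gut and yolk sac, are neighbours on chromosome 9 with 12.2 kb between their listed exons. Apoa4 (listed exon 46048927 to 46049285, plus strand) was at 2.43 and 2.54 CPM in wild-type libraries, 8.67 and 5.69 in RepB+/- and 8.59 and 4.71 in RepB-/- libraries. Replicate 1 was the higher one in both RepB genotypes, and all 4 RepB libraries exceeded wild type. Apoa4 rose 3.03-fold (log2 1.60, SE 0.31, edgeR adjusted p = 0.00338) and 2.71-fold (log2 1.44, SE 0.31, edgeR adjusted p = 0.00605). The RepB-/- call was lost with the first wild-type or the first RepB-/- library omitted (up to 0.124). Apoa1 was at 59.7 and 82.4 CPM in wild-type libraries, 105 and 114 in RepB+/- and 101 and 84.4 in RepB-/- libraries. It rose in RepB+/- cells (log2 0.63, SE 0.14, edgeR adjusted p = 0.00724), not with the first wild-type library omitted (0.13). For RepB-/- the value was 0.39 (SE 0.14, edgeR adjusted p = 0.074), called when the second wild-type or either RepB+/- library was omitted (edgeR adjusted p from 0.0269 to 0.042).

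Apom, an apolipoprotein that carries sphingosine phosphate, was at 4.23 and 1.78 CPM in wild-type libraries, 11.9 and 6.72 in RepB+/- and 7.08 and 4.11 in RepB-/- libraries. It rose 3.08-fold in RepB+/- cells (log2 1.62, SE 0.35, edgeR adjusted p = 0.0061), not with the second wild-type or the first RepB+/- library omitted (up to 0.084). Its RepB-/- libraries overlapped wild type (log2 0.83, SE 0.35, edgeR adjusted p = 0.139), and the change was called when the first wild-type or either RepB+/- library was omitted (edgeR adjusted p from 0.0431 to 0.0479). Apoa2, another protein of high density lipoprotein, was called in neither comparison, at 3.51 and 2.03 CPM in wild-type libraries, 6.0 and 4.01 in RepB+/- and 5.76 and 3.52 in RepB-/- libraries (log2 0.87 and 0.71, edgeR adjusted p = 0.0785 and 0.157). It was called in RepB+/- cells when their second library was omitted (edgeR adjusted p = 0.0222), and in both genotypes with no filter on low counts (0.00855 and 0.0371). Apoc2, an activator of lipoprotein lipase, had 2 and 1 reads in wild-type libraries, 26 and 1 in RepB+/- and 15 and 11 in RepB-/- libraries. It passed the filter on low counts only through RepB libraries, and its call in RepB+/- cells (edgeR adjusted p = 0.0427) was lost on omission of the first RepB+/- library (0.917) and of any other but the second. Apoc2 did not pass in RepB-/- cells (edgeR adjusted p = 0.0984), and it did with the second RepB+/- library omitted (0.0482).

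Apoe, a ligand of lipoprotein receptors, did not follow these genes. Apoe was at 703 and 848 CPM in wild-type libraries, 701 and 853 in RepB+/- and 725 and 636 in RepB-/- libraries, so that the genotypes overlapped. The log2 difference had a 95% interval of -0.32 to 0.32 in RepB+/- (edgeR adjusted p = 0.993) and was -0.19 in RepB-/- cells (SE 0.15, edgeR adjusted p = 0.449). Because Apoe makes up most of the group's reads, the summed level of the 8 genes was only 1.19 times the wild-type mean in RepB+/- and 1.02 times in RepB-/- cells. Macrophages also make Apoe, and the summed level of 12 macrophage and blood genes was 174 and 164 CPM in wild-type libraries, 220 and 285 in RepB+/- and 238 and 305 in RepB-/- libraries. Their part in the Apoe level was not tested.

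The endocytic receptor genes code for the uptake machinery of the visceral endoderm and proximal kidney tubule. In this group 3 of 4 genes rose in RepB+/- and 1 of 4 in RepB-/- cells (median log2 0.89 and 0.69). Cubn, the large ligand-binding receptor cubilin (chromosome 2, listed exon 13197965 to 13198462, minus strand), was at 16.1 and 12 CPM in wild-type libraries, 40.8 and 30.4 in RepB+/- and 33.0 and 32.8 in RepB-/- libraries. All RepB libraries stood above 30 CPM and both wild-type libraries at 16.1 or below. Cubn rose 2.55-fold (log2 1.35, SE 0.16, edgeR adjusted p = 9.89e-05) and 2.32-fold (log2 1.21, SE 0.16, edgeR adjusted p = 0.000196). Amn, amnionless, the membrane anchor that carries cubilin to the cell surface, was at 1.70 and 0.593 CPM in wild-type libraries, 3.76 and 2.33 in RepB+/- and 3.04 and 1.74 in RepB-/- libraries. It rose in RepB+/- cells (log2 1.38, SE 0.43, edgeR adjusted p = 0.0414), a call lost on omission of any library but the first wild-type and the second RepB+/- one (up to 0.334). Against wild type RepB-/- had 0.96 (SE 0.43, edgeR adjusted p = 0.158).

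Lrp2, the partner receptor megalin, was at 46.6 and 43.7 CPM in wild-type libraries, 58.6 and 54.2 in RepB+/- and 43.5 and 49.5 in RepB-/- libraries. The RepB+/- libraries were above the others and the change did not pass (log2 0.32, SE 0.11, edgeR adjusted p = 0.0648), and RepB-/- overlapped wild type (log2 0.04, SE 0.11, edgeR adjusted p = 0.856). Dab2, the adaptor that links megalin to clathrin, was at 254 and 207 CPM in wild-type libraries, 310 and 312 in RepB+/- and 272 and 347 in RepB-/- libraries. The log2 fold changes were both 0.43 (SE 0.14 each), called in RepB+/- (edgeR adjusted p = 0.0426) and not in RepB-/- cells (edgeR adjusted p = 0.0513). The first call was lost when any 1 wild-type or RepB+/- library was omitted (up to 0.391). The RepB-/- value passed when the first RepB-/- or either RepB+/- library was omitted (edgeR adjusted p from 0.0177 to 0.031). Both wild-type MEF (174 CPM) and RepB MEF (266 CPM) also expressed Dab2, and the summed level of 16 fibroblast genes in ES cells overlapped between genotypes, at 26374 and 32891 CPM in wild-type libraries, 20915 and 37870 in RepB+/- and 24351 and 28189 in RepB-/- libraries.

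Of the 8 genes for endoderm transcription factors, the cofactor gene Cited1 included, 2 rose in RepB+/- and none in RepB-/- cells (median log2 0.52 and 0.02), and their summed level was 1.15 and 1.00 times the wild-type mean. Hnf4a, a nuclear receptor that controls apolipoprotein and serum protein genes in visceral endoderm and liver, was at 10.1 and 10.3 CPM in wild-type libraries, 17.8 and 15.8 in RepB+/- and 14.8 and 13.6 in RepB-/- libraries. Its groups did not overlap. Hnf4a rose in RepB+/- cells (log2 0.73, SE 0.16, edgeR adjusted p = 0.00636), not with the first wild-type or the first RepB+/- library omitted (up to 0.0568). Hnf4a did not pass in RepB-/- cells (log2 0.48, SE 0.16, edgeR adjusted p = 0.0539), and it did when either RepB+/- library was omitted (edgeR adjusted p from 0.0321 to 0.0333). Foxa2, a forkhead factor of visceral and definitive endoderm, was at 4.13 and 5.68 CPM in wild-type libraries, 7.79 and 8.01 in RepB+/- and 5.04 and 5.53 in RepB-/- libraries. Foxa2 rose in RepB+/- cells (log2 0.71, SE 0.22, edgeR adjusted p = 0.0414), a call lost when any 1 library was left out (up to 0.313), and it overlapped wild type in RepB-/- cells (log2 0.13, SE 0.22, edgeR adjusted p = 0.748).

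Gata6, at the head of the primitive endoderm programme, was at 289 and 260 CPM in wild-type libraries, 260 and 361 in RepB+/- and 252 and 297 in RepB-/- libraries. The genotypes overlapped, with RepB+/- replicate 2 the highest (log2 0.17 in RepB+/- cells, SE 0.15, edgeR adjusted p = 0.454). The SOX factor genes Sox17 and Sox7, active in endoderm and also in endothelium, and the forkhead genes Foxa1 and Foxa3 were called in neither comparison. Sox17 was at 8.88 and 11.6 CPM in wild-type libraries, 12 and 15.5 in RepB+/- and 9.39 and 8.82 in RepB-/- libraries. Sox7 was at 2.53 and 3.31, 4.99 and 3.62, and 2.86 and 2.42 CPM in the same order. Both were highest in RepB+/- libraries, with log2 values against wild type of 0.41 and 0.64 in RepB+/- and -0.15 and -0.11 in RepB-/- cells. Foxa1 was at 20.5 and 20.0 CPM in wild-type libraries, 20.6 and 26.1 in RepB+/- and 12.7 and 19.1 in RepB-/- libraries, and Foxa3 at 1.86 and 3.56, 4.14 and 3.75, and 2.83 and 2.83. Their RepB+/- libraries lay above and, for Foxa1, the RepB-/- libraries lay below wild type (edgeR adjusted p = 0.541 and 0.21 for Foxa1 in RepB+/- and RepB-/- cells, 0.191 and 0.835 for Foxa3).

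The laminin genes had the lowest fold changes of the members in RepB+/- but not in RepB-/- cells, where Foxa1 did (log2 -0.36). Lama1, whose alpha chain belongs to the laminin of early embryonic basement membranes, was at 231 and 277 CPM in wild-type libraries, 188 and 221 in RepB+/- and 201 and 245 in RepB-/- libraries. Lamb1, the beta chain of the same trimer, was at 551 and 636 CPM in wild-type libraries, 475 and 538 in RepB+/- and 494 and 518 in RepB-/- libraries. RepB+/- libraries were below wild type for both genes, and RepB-/- libraries for Lamb1. No change passed (Lama1 log2 -0.32 in RepB+/-, SE 0.13, edgeR adjusted p = 0.12, and -0.19 in RepB-/-, 0.389, and Lamb1 -0.23 in both, edgeR adjusted p = 0.246 and 0.277). With the second RepB+/- library omitted, Lama1 passed as lower in RepB+/- cells (edgeR adjusted p = 0.0422).

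The RepB genotypes were then compared with each other. No member was called in either direction by edgeR, where 0.0198% of all genes tested were higher and 0.066% lower in RepB-/- than in RepB+/- cells, and DESeq2 called none either. At an unadjusted p of 0.05, 9 members were lower and none higher in RepB-/- cells, beside 3.93% and 2.69% of all genes. The members' median log2 difference was -0.24, against -0.01 for all genes, and 25 of the 30 differences were negative. Both RepB-/- libraries lay below both RepB+/- libraries in 12 members, beside 17.4% of all genes, and above them in 1, beside 16.2% of all genes. The transcription factors had a median difference of -0.52, with Sox7 at -0.75 (95% interval -1.32 to -0.18), Foxa2 at -0.58 (-1.03 to -0.13), Sox17 at -0.56 (-0.96 to -0.17) and Foxa1 at -0.54 (-0.93 to -0.15). Among the secreted proteins Apob differed by -0.42 (-0.67 to -0.16, edgeR adjusted p = 0.349) and Afp by -0.27 (-0.52 to -0.02, edgeR adjusted p = 0.711), while Trf differed by 0.12 (-0.23 to 0.46). Over the members the intervals reached from -2.01 (Alb) to 0.89 (Fgg), with a median half-width of 0.33, so differences of that size could not be told from none. With the second RepB+/- library omitted, Apob was called lower in RepB-/- cells (edgeR adjusted p = 0.0428).

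Reads over strain variants were split between the 129 and CAST alleles. In these ES cells most members had nearly only 129 reads, from 98.9% (Apoa2, Hnf4a) to 100% (Sox7, Sox17) where at least 120 reads were available. Both strains gave between 10% and 90% of at least 120 reads in 8 members: Afp on chromosome 5, Apoa1, Apoa4 and Trf on chromosome 9, Apoe and Foxa3 on chromosome 7, Cubn on chromosome 2, and Cited1 on the X. Lrp2, Foxa2 and Hnf4a, also on chromosome 2, had 98.9% to 100% of reads from 129. Whether the ES line carries CAST sequence at genes with nearly only 129 reads was not tested, so these shares do not show transcription from 1 of 2 alleles. The 129 share of Afp was 57.7% and 53.5% in wild-type libraries, 52.8% and 49.9% in RepB+/- and 52.8% and 54.3% in RepB-/- libraries, from 333 to 3023 allelic reads. Its 129 reads were 3.38 times and its CAST reads 4.00 times the wild-type mean in RepB+/- cells, and 2.64 and 2.86 times in RepB-/- cells. Cubn rose in the reads of both strains too, at 2.97 (129) and 2.29 times (CAST) in RepB+/- and 3.00 and 2.25 times in RepB-/- cells. For Apoe the same ratios were 1.04 and 1.02 in RepB+/- and 0.953 and 0.955 in RepB-/- cells. These ratios of allelic CPM are descriptions with no test.

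Cited1, the 1 X-linked member, encodes a transcriptional cofactor of the early visceral endoderm and trophoblast (listed exon 99442717 to 99443347, minus strand). Over all reads it overlapped between genotypes, at 25.3 and 21.1 CPM in wild-type libraries, 23.2 and 20.3 in RepB+/- and 29.8 and 18.3 in RepB-/- libraries (log2 -0.09 and 0.05, SE 0.19 each, edgeR adjusted p = 0.791 and 0.894). Its alleles did change. Wild-type libraries had 0 of 111 and 0 of 36 reads from 129, with Clopper-Pearson 95% intervals that reach up to 3.27% and 9.74%. RepB+/- libraries had 36 of 126 (28.6%, Clopper-Pearson 95% interval 20.9% to 37.3%) and 9 of 37 (24.3%, 11.8% to 41.2%). In RepB-/- libraries 20 of 133 (15.0%, 9.43% to 22.3%) and 17 of 70 (24.3%, 14.8% to 36.0%) came from 129. Every RepB library thus had 129 reads and no wild-type library had any. A floor of 3 counts in each wild-type library is 4.08% of their 147 reads together, and 2.70% and 8.33% of the reads of each alone. The mean 129 share was 6.48 times the joint floor in RepB+/- (26.4% ± 3.00, SD, n = 2) and 4.82 times in RepB-/- cells (19.7% ± 6.54). These ratios leave out the error of the RepB shares, so they are not lower bounds.

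The ratio of 129 to CAST reads of Cited1 changed toward 129 in RepB+/- (edgeR quasi-likelihood test with an allele-by-genotype term, adjusted p = 2.93e-06) and RepB-/- cells (edgeR adjusted p = 0.000127), where 2.1% and 2.24% of the 11597 genes with allelic reads did so. With the first wild-type library, which holds most of the wild-type reads, omitted, neither passed (edgeR adjusted p = 0.0543 and 0.236). The shift was common to the chromosome: of 377 genes on the X, the calls toward 129 numbered 225 in RepB+/- and 234 in RepB-/- cells. Between the RepB genotypes the ratio of Cited1 did not differ at this depth (log2 -0.70, SE 0.60, edgeR adjusted p = 1). The CAST reads of Cited1 were at 5.73 and 3.05 CPM in wild-type libraries, 3.16 and 3.62 in RepB+/- and 3.90 and 2.42 in RepB-/- libraries. Intervals and floors cover counting error only.

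**Figure D3:**
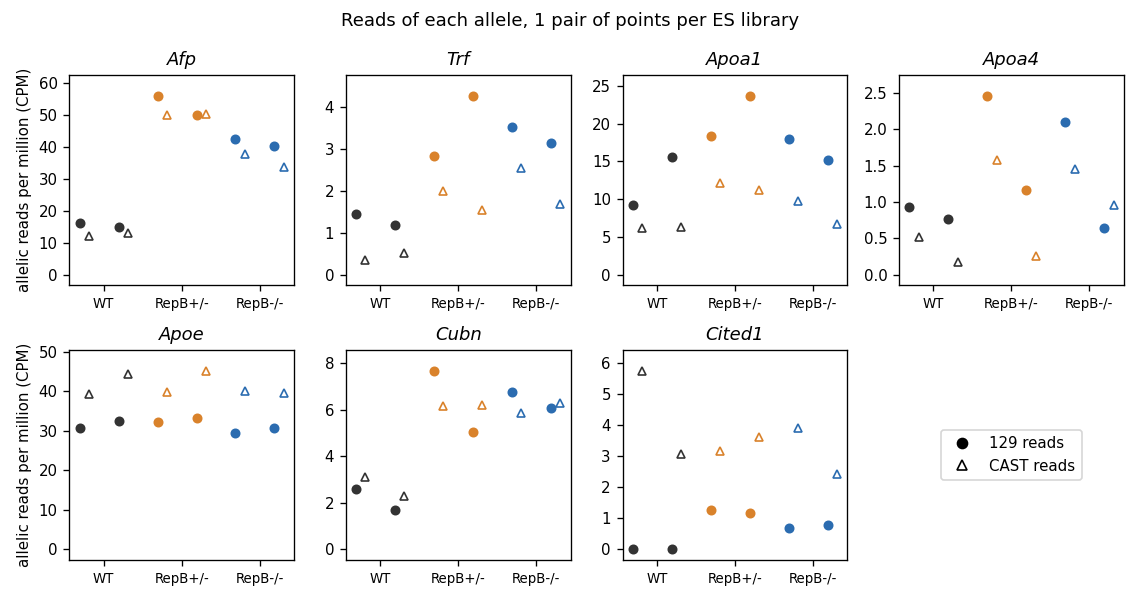
Reads given to the 129 chromosome (filled circles) and to the CAST chromosome (open triangles) for 7 members with reads of both strains, in allelic CPM, with 1 pair of points per ES library. Both kinds of point lie higher in RepB than in wild-type libraries for Afp, Trf and Cubn, both stay level for Apoe, and Cited1 has 129 reads in the RepB libraries only.

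Further genes of the same tissues gave a mixed picture. The counts of this list and of the lists below stand beside the shares of all genes tested. In RepB+/- cells 9.12% of all genes rose and 6.84% fell, and in RepB-/- cells 7.27% rose and 5.49% fell. Of 21 other visceral endoderm and liver-type genes tested, 6 rose and 1 fell in RepB+/- and 4 rose and 1 fell in RepB-/- cells (median log2 0.59 and 0.20). The summed level of this list (29 genes) was lower in every RepB library. It was 742 and 782 CPM in wild-type libraries, 642 and 647 in RepB+/- and 702 and 612 in RepB-/- libraries. Krt19 made up most of that sum, at 433 and 481 CPM in wild-type libraries. Muc13, a membrane mucin of epithelia, rose in both (log2 2.12, SE 0.27, edgeR adjusted p = 0.000152, and 2.02, SE 0.27, edgeR adjusted p = 0.000177), from 1.29 and 1.61 CPM in wild-type to 5.39 to 6.53 in RepB libraries. Dpp4, a peptidase of the brush border, also rose in both (log2 1.13 and 1.06, edgeR adjusted p = 0.00341 and 0.00451). The brush border gene Vil1 (log2 1.23, edgeR adjusted p = 0.0023) rose in RepB+/- cells, and in RepB-/- cells had 0.57 (edgeR adjusted p = 0.111). The keratin gene Krt19 fell in both (log2 -0.67 and -0.49, edgeR adjusted p = 0.00492 and 0.0298). With single libraries omitted in turn, Muc13 in both genotypes, Vil1 in RepB+/- and Dpp4 in RepB-/- cells kept their calls. In RepB+/- cells Dpp4 lost its call when the first RepB+/- library was omitted (edgeR adjusted p = 0.108) and Krt19 when the second wild-type library was (0.0744). Krt19 lost its RepB-/- call when either wild-type or the second RepB-/- library was omitted (up to 0.305). The number called in RepB+/- cells was then 4 with either wild-type or the first RepB+/- library omitted. For RepB-/- it was 2 with the first wild-type library omitted and 3 with the second wild-type or either RepB-/- library omitted.

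Of 12 parietal endoderm and basement membrane genes, 1 rose and 2 fell in each RepB genotype (median log2 -0.14 and -0.13). The 1 rise among 12 is near the share of all genes that rose (9.12% in RepB+/- and 7.27% in RepB-/- cells). Srgn, a proteoglycan gene also active in blood cells, rose (log2 1.40 and 1.35, edgeR adjusted p = 0.00758 and 0.0084), while the protease gene Plat (-0.51 and -0.47, edgeR adjusted p = 0.00582 and 0.0101) and the laminin-binding gene Nid1 (-0.47 and -0.48, edgeR adjusted p = 0.0312 and 0.0313) fell. All 3 calls were lost in both genotypes when the second wild-type library was omitted, and in RepB-/- cells also when the second RepB-/- library was. Nid1 also lost both calls when the first wild-type library or the first library of the RepB genotype compared was omitted.

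Of 12 definitive endoderm and gut genes, 5 rose in RepB+/- cells and none fell, and 1 rose and 3 fell in RepB-/- cells (median 0.63 and 0.06). Eomes, an early endoderm and mesoderm regulator, rose in RepB+/- cells (log2 1.82, edgeR adjusted p = 0.00161) and had 1.00 in RepB-/- cells (edgeR adjusted p = 0.0558), and the secreted gut peptide gene Tff3 rose in both (1.67 and 1.75, edgeR adjusted p = 0.00661 and 0.00426). Gsc (1.28, edgeR adjusted p = 0.0189) rose in RepB+/- cells. Mixl1, the fifth of those called there (edgeR adjusted p = 0.0236), passed the filter on low counts only through the RepB+/- libraries, where it is high (0.562 and 1.16 CPM, against 0.103 and 0 in wild type), so its call is no support for a rise. Onecut1 (-1.04, edgeR adjusted p = 0.0169) and Prox1 (-0.98, 0.0258) fell in RepB-/- cells. Nkx2-1 (-1.49, 0.047) was also called lower there, and none of its RepB-/- libraries reached the level the filter asks for. It passed the filter only through wild-type and RepB+/- libraries, where it is higher, so its call is no support for a fall, though it stays in the count. Only the RepB+/- call of Eomes was kept whichever library was omitted. The RepB+/- count was 2 with either wild-type or the first RepB+/- library omitted. The fallen RepB-/- genes numbered 1 with the first wild-type or the second RepB-/- library omitted, and none with the second wild-type or the first RepB-/- library omitted. Eomes passed in RepB-/- cells when either RepB+/- or the first RepB-/- library was omitted (edgeR adjusted p from 0.0181 to 0.023).

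Among 15 endocytosis genes that work beside megalin and cubilin none rose, 3 fell in RepB+/- and 2 in RepB-/- cells. The receptor genes Lrp8 (log2 -0.90 and -0.94, edgeR adjusted p = 0.000247 and 0.000152) and, in RepB+/- cells, Vldlr (-0.55, edgeR adjusted p = 0.00988) fell. Lrp8 kept its calls whichever library was omitted, and Vldlr did not pass with the first wild-type library omitted (edgeR adjusted p = 0.0643).

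Markers of other cell types also changed, some lists mostly upward, some downward and some both ways, and their part in the results above was not tested. Of 18 pluripotency genes 16 rose in RepB+/- and 14 in RepB-/- cells and 1 fell in each, with a summed level of 405 and 474 CPM in wild-type libraries, 799 to 997 in RepB+/- and 679 to 771 in RepB-/- libraries. The serum protein genes (2.07 and 1.79 times wild type) and the pluripotency genes (2.04 and 1.65 times) had rises of their sums of about that size. Of 23 cardiac muscle genes 14 and 16 fell (sums 1500 to 1676, 919 to 1174 and 888 to 974 CPM), and of 9 trophoblast genes tested 7 and 6 fell (sums 405 to 466, 193 to 215 and 211 to 215 CPM). Of 12 macrophage and blood genes 6 and 7 rose and none fell. Single libraries set some of these counts. With the second wild-type library omitted the falling cardiac genes numbered 8 in RepB-/- cells, and the macrophage and blood genes that rose numbered 0 and 3. The latter were 2 and 2 when the second library of the RepB genotype compared was omitted, and the falling trophoblast genes 4 in RepB+/- cells when the first wild-type library was. Fibroblast genes (4 rose and 1 fell of 16, then 5 and 2), endothelium (4 and 2 of 10, then 1 and 3) and neural genes (4 and 4 of 12, then 3 and 4) moved both ways, and their counts also moved by up to 4 genes in 1 direction when 1 library was omitted. None of the pluripotency, cardiac, fibroblast, endothelium, macrophage, neural or trophoblast genes in the tables was at 0 in all 6 ES libraries. Hand1 stands in both the cardiac and the trophoblast list, and Cdx2 in both the gut and the trophoblast list.

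**Figure D4:**
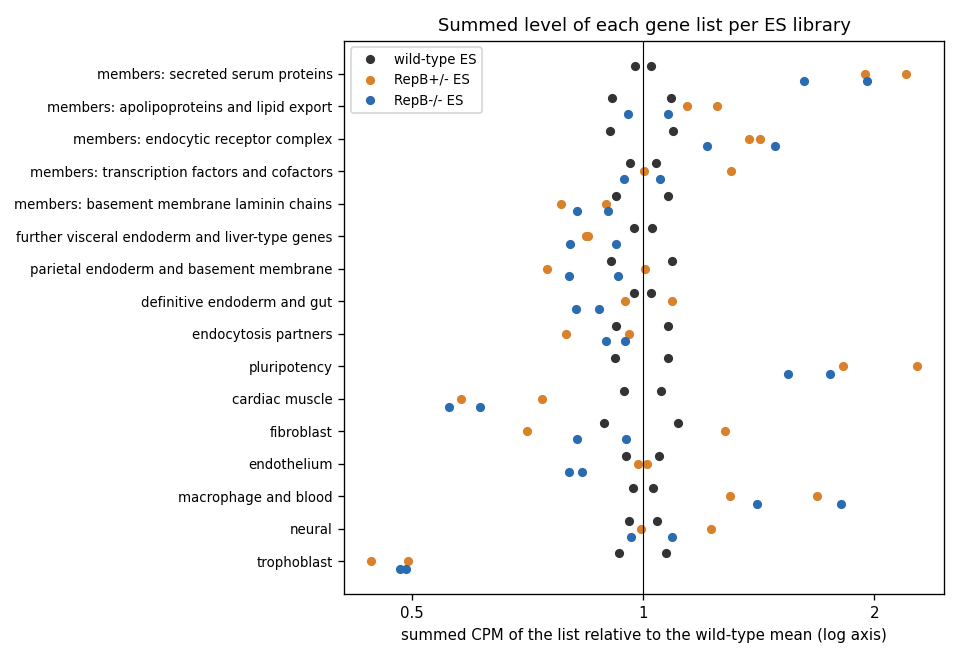
Summed CPM of each gene list in each ES library relative to the mean of the wild-type libraries (log axis). RepB libraries lie right of 1 for the serum proteins, the endocytic receptor genes, pluripotency and macrophage and blood genes. They lie left of 1 for laminins, further visceral endoderm and liver-type genes, endocytosis partners, cardiac muscle and trophoblast genes.

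In MEF the comparison of RepB with wild type had 1 library each and no replicate check. Only 9 members averaged at least 1 CPM there (Apoe, Mttp, Cubn, Lrp2, Dab2, Foxa1, Gata6, Lama1 and Lamb1), with a median log2 ratio of 0.37 against 0.03 for all 11680 genes kept. Past 2-fold, 1 of the 9 was higher and 2 were lower, beside 3.33% and 6.47% of all genes kept. Mttp went from 28 to 125 reads (2.42 to 6.41 CPM, ratio 2.57 with prior count 2, counting interval of the plain ratio 1.75 to 4.15). Lower in the RepB library were Apoe, with 92 and 37 reads (7.94 and 1.90 CPM, interval of the ratio 0.159 to 0.354), and Lrp2, with 75 and 33 reads (6.47 and 1.69 CPM, 0.168 to 0.399). Cubn, which rose in RepB ES cells, had 36 and 86 reads in MEF (3.11 and 4.41 CPM, 0.952 to 2.16). Afp had 1 read in the wild-type and none in the RepB MEF library, and Trf, Apoa4 and the 3 fibrinogen genes had none in either. In MEF, 3 members had at least 20 allelic reads in each library. The 129 share was 24.5% of 49 reads (Clopper-Pearson interval 13.3% to 38.9%) for Lama1 in the wild-type library and 91.0% of 111 reads (84.1% to 95.6%) in the RepB library. Lamb1 and Dab2, with more reads, had smaller differences, Lamb1 with 51.2% (48.6% to 53.8%) and 64.3% (61.8% to 66.7%) and Dab2 with 37.8% (33.9% to 41.8%) and 48.1% (45.6% to 50.6%).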

How the data were processed

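The files hold whole-number read counts per gene as deposited by the authors, with 3 columns per library: 1 for all reads, 1 for the 129 allele and 1 for the CAST allele. The submitters' processing notes name Novoalign, TopHat, cutadapt, SAMtools, bedtools, featureCounts, HOMER, Juicer and the mouse build mm9, but which of them made these counts, their versions and the strand setting are not given in the sources used here, so overlapping and antisense genes cannot be told apart. All 24 value columns were mapped to samples by name. Poly(A) RNA of 6 ES libraries (3 genotypes, 2 libraries each) was tested, and 2 MEF libraries were described.

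Genes were kept by edgeR's filterByExpr (minimum count 10, minimum total 15), scaled by TMM and fitted on genotype over all 6 ES libraries with edgeR 4.0.16 (quasi-likelihood F-test, R 4.3.3), with Benjamini-Hochberg adjustment over the 15149 genes kept. The common biological coefficient of variation was 9.49%. RPKM used the exon length of the count tables. Allelic counts were fitted with a term for each library and the interaction of allele with genotype, for genes with at least 20 allelic reads per library on average. MEF ratios used a prior count of 2 for genes averaging at least 1 CPM. The TMM factors of the MEF libraries were computed apart from those of the ES libraries. Intervals are at 95% and floors are 3 counts. The procedures were tested on simulated data.

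Alternatives were DESeq2 1.42.0, RLE scaling, TMM from autosomal genes, no filter, a filter of 1 CPM, only the genotypes compared, the replicate number as a block, and each library left out in turn. Members averaging at least 1 CPM were named with values, Apoc2 in addition, and in each further list up to 4 called genes per direction with the lowest adjusted p. Up to 4 promoters were printed by the same order. The letters GTTAAT for HNF1 were also planned but were not searched or marked. The further lists cover visceral endoderm, parietal endoderm, definitive endoderm and gut, and endocytosis partners; the lists of other cell types cover pluripotency, cardiac muscle, fibroblast, endothelium, macrophage and blood, neural and trophoblast genes. The members and lists were chosen with earlier results of these data known. Leaving out single libraries for the further lists and the other cell types was chosen after seeing the data. A few genes of the further lists are not reported here by name.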

Additional observations from a re-analysis of the deposited data

How the results depend on the processing

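Members called in RepB+/- cells numbered 18 and, over the omissions of single libraries, 7 to 17. The other alternatives gave 12 (DESeq2) to 21 (replicate block, 20 higher and Lama1 lower). For RepB-/- the 8 calls became 15 with no filter on low counts, 13 with only the 2 genotypes compared and 15 with the replicate block, ranged from 5 to 14 over the omissions, and were 8 or 9 otherwise. Between the RepB genotypes there were 0 calls, except 1 with no filter (Apom, lower in RepB-/-) and 0 to 1 over the omissions. The causes were not tested. Same-numbered libraries of different genotypes had correlations of 0.108, 0.0696 and 0.186 of their deviations across 15149 genes. With 2 libraries per genotype, such values cannot decide whether libraries of the same number shared a batch. The block added Apoa2 (edgeR adjusted p = 0.0196), Lrp2 (0.0304) and Lama1 in RepB+/- cells, and Ttr, Apoa1, Apoa2 (0.0338), Apom, Amn, Dab2 and Hnf4a in RepB-/- cells. No called member changed sign under the 13 alternatives, and 49 of 782 values that were not called did. The Cited1 allele ratio (log2 8.07 in RepB+/- and 7.37 in RepB-/- cells, fitted values that depend on the prior count) ranged from 7.41 to 8.48 and from 6.71 to 7.78 over the omissions, and missed the threshold without wild-type replicate 1 in both. Where an omission left 1 library in a genotype, that library was assumed to vary like the others. Members with few reads (Alb, Fga, Fgg, Apoc2) limit the precision most. The MEF comparison kept 3 members past 2-fold with total-count scaling and with a prior count of 0.5.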

Other observations

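Basement membrane genes of the parietal endoderm list, none of them a member, differed between the 2 MEF libraries, with 1 library each and no replicate check. Col4a1 and Col4a2, the paired collagen IV chains of most basement membranes, had 4154 and 4887 reads in the wild-type MEF library (358 and 422 CPM) and 166 and 179 reads in the RepB library (8.52 and 9.18 CPM). The ratios of RepB to wild type were 0.0238 (counting interval 0.0202 to 0.0277) and 0.0218 (0.0187 to 0.0253). Nid1, a linker of laminin and collagen IV, had 6464 reads against 8 (558 and 0.410 CPM, 1359-fold lower). The relative Nid2 had 217 and 305 CPM and the matrix gene Sparc 3841 and 3955 CPM, so the lower level was not shared by these genes. The laminin gene Lamc1 had 692 and 345 CPM.

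In ES cells Col4a1 (log2 -0.13 in RepB+/- and -0.31 in RepB-/- cells) and Col4a2 (-0.16 and -0.32) were called in neither comparison with wild type by edgeR. Nid1 fell there in both (log2 -0.47 and -0.48, edgeR adjusted p = 0.0312 and 0.0313), and both calls leaned on single libraries. The RepB+/- call was lost when either wild-type or the first RepB+/- library was omitted. The RepB-/- call was lost on omission of any wild-type or RepB-/- library. Which of these differences belong to the genotype and which to the 2 MEF samples cannot be told apart.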
